A study of Mus musculus with 32 samples.

Results

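The change of the IFN-γ response between 4 and 12 hrs was followed in YUMM3.3, a mouse melanoma cell line with mutant Braf. It was defined as the effect of IFN-γ at 12 hrs (IFN-γ-treated against untreated cells) minus the same effect at 4 hrs. The 16 wells that enter it were chosen by their labels among 32 wells in all, and form 4 groups of 4: untreated cells (NT) at 4 hrs, cells given 20 ng/ml IFN-γ at 4 hrs, and both conditions at 12 hrs. The other 16 wells received 40 ng/ml Activin-A, a TGF-β family ligand, with or without IFN-γ, and serve as a separate measurement. All wells hold this 1 line grown in culture. Nothing in the labels says that the wells came from separate cultures, and the p-values measure the spread between wells, which may be technical. mRNA was measured by BRB-seq, in which the 3′ ends of transcripts are barcoded by well, pooled and sequenced.

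IFN-γ binds IFNGR1 and IFNGR2, which activate the kinases JAK1 and JAK2 and, through them, transcription factors that bind GAS elements in the promoters of first targets such as Irf1. IRF1 with other interferon regulatory factors then acts on ISRE elements in further genes, so that some targets depend on protein made after the signal arrived. SOCS1 feeds back on the JAK kinases. In tumor cells the pathway is known for raising MHC class I, which shows peptides to CD8+ T cells, and PD-L1, which restrains these cells.

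The wells of the contrast held 697656 to 1285540 counts, and group medians lay between 958651 and 1018558. Same-group wells differed by more than sampling noise in each of 24 pairs, with a chi-square per gene of 1.18 to 1.54. Of 18 melanocyte lineage genes 17 were listed, among them Pmel with 78 to 169 counts per well, Dct with 50 to 94 and Tyrp1 with 51 to 132. Their summed level was 447 to 536 CPM (counts scaled to library size, elsewhere TMM-normalized) in every group, and 0 of the 12 tested were called for IFN-γ at either time by edgeR (1 at an unadjusted p under 0.05, at 12 hrs, and 0 with DESeq2). Of 28 markers of immune, endothelial and stromal cells 9 were listed, with 22.9 to 57.3 CPM summed over all 9. Ptprc, the pan-leukocyte marker CD45, had at most 5 counts in a well.

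Most genes called higher at 4 hrs were also called higher at 12 hrs, the lowered lists shared fewer, and the effect itself differed between the times for few genes. At 4 hrs 408 genes were higher with IFN-γ and 83 were lower, 4.37% and 0.889% of 9332 genes tested with edgeR's quasi-likelihood test (adjusted p under 0.05). At 12 hrs 572 were higher and 225 lower, 6.13% and 2.41%. The induced lists shared 346 genes, 84.8% of the list at 4 hrs and 60.5% of that at 12 hrs, with median effects of 1.14 and 1.23 on the log2 scale. The lowered lists shared 35 genes, 42.2% and 15.6% of each.

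The effect itself differed between the times for 54 genes: it was higher at 12 hrs for 41 and lower for 13, or 0.439% and 0.139% of genes tested. At an unadjusted p under 0.05 the effect differed for 689 of the 9332 genes (edgeR). DESeq2's Wald test called 39 and 12, and edgeR fitted to only the 16 wells called 45 and 30. With 1 well left out the lower count fell to 5 (without IFNy_12H replicate 2), 6 (without NT_4H replicate 4 or NT_12H replicate 2) or 8 (without IFNy_4H replicate 1 or 2 or IFNy_12H replicate 1). The median over all genes was 0.0096 with a median SE of 0.25, so that small changes of the effect could not be seen for most genes at this depth. Of the 226 genes called higher at 12 hrs and not at 4 hrs, 12 passed the test of the difference. Of the 62 called higher only at 4 hrs, 0 passed it with edgeR, 18 had an unadjusted p under 0.05, and 0 passed with DESeq2. Being called at a single time was thus seldom a measured difference in time. With edgeR, 0 genes were called in opposite directions at the 2 times (0 with DESeq2, 11 at unadjusted p under 0.05 at both).

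Genes were sorted into classes by these tests. The effect of 39 induced genes was larger at 12 hrs, and that of 1, Irgm1, was larger at 4 hrs. Another 97 induced genes were sustained, meaning called at both times with the 95% interval of the difference inside ±0.5 on the log2 scale. This number depends on the bound: it was 22 with a bound of 0.3 and 228 with a bound of 1. Of lowered genes, 11 had a larger effect at 12 hrs, 1, Grem1, had a larger effect at 4 hrs, and 22 were sustained. The 11 became 29 with only the 16 wells fitted and 5 to 14 with 1 of these wells left out. The 22 became 4 with a bound of 0.3. Irgm1 and Grem1 both left their classes with a replicate block. Sparc belonged to 2 of these classes. The remaining genes called at either time were placed in no class.

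**Figure D1:**
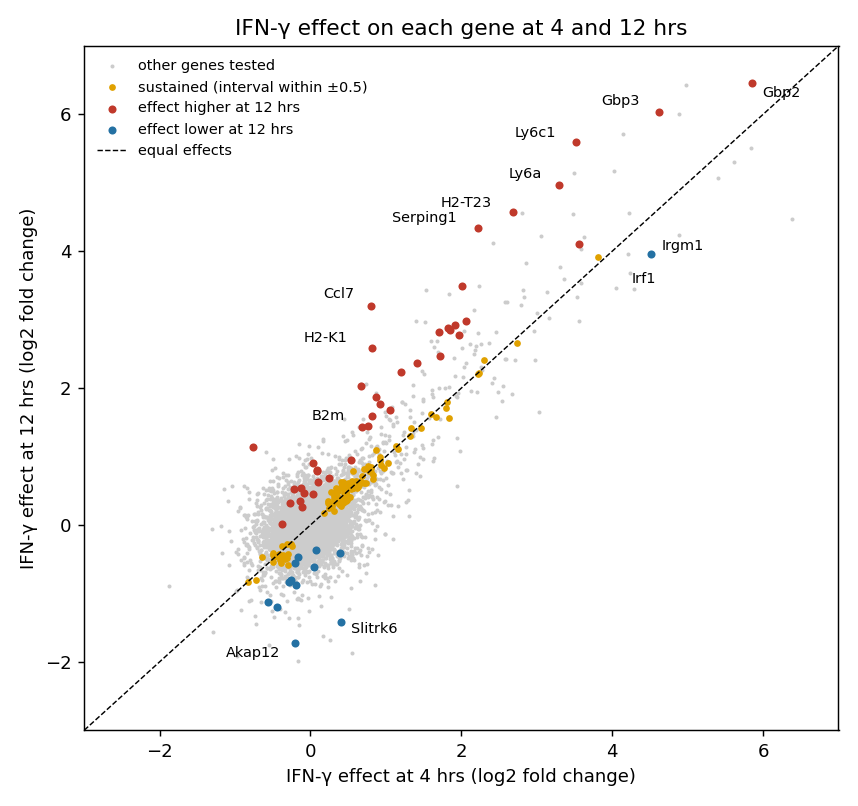
IFN-γ effect on each gene tested at 4 hrs (x axis) and 12 hrs (y axis), both log2 fold changes, for genes not at the floor of detection in untreated wells. The dashed line marks equal effects; 41 genes (red) lie above it and 13 (blue) below it by the test of the difference, and sustained genes (yellow) lie along it.

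Some signaling genes at the head of the pathway were induced by 4 hrs, with no called change of the effect at 12 hrs. Of 13 receptors, JAKs and STATs tested, 4 were higher and 1 lower with IFN-γ at 4 hrs, 5 were higher at 12 hrs, and 0 had a different effect at the 2 times (edgeR, 2 at unadjusted p under 0.05, 0 with DESeq2). Stat2, which acts in type I interferon signaling, rose by 2.44 at 4 hrs and 2.15 at 12 hrs on the log2 scale (difference -0.29 ± 0.28, SE, adjusted p = 0.902, edgeR). Jak2 rose by 0.63 and 0.67.

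Irf1, the transcription factor that relays the signal to secondary targets, was already strongly induced at 4 hrs. It stood at 41.3, 44.3, 42.8 and 40.96 CPM in untreated wells at 4 hrs and 775, 788, 761 and 806 CPM with IFN-γ. Wells at 12 hrs held 41.7, 46.6, 38.5 and 53.8 CPM without and 737, 681, 683 and 708 CPM with IFN-γ. All 4 treated wells at 12 hrs lay below the 4 at 4 hrs, yet the effects of 18.5-fold and 15.6-fold differed by -0.24 ± 0.15 on the log2 scale, which did not pass the test (interval -0.55 to 0.06, adjusted p = 0.81, edgeR). Irf7, the regulator of later type I interferon genes, had 47.8, 61.03, 48.5 and 59.99 CPM with IFN-γ at 4 hrs and 132, 118, 82.1 and 131 CPM at 12 hrs. Its treated wells rose between the times by 1.07 (adjusted p = 8.79e-09, edgeR), while the difference of the effects, 0.84 ± 0.30, had an adjusted p of 0.362. Of the 7 interferon regulatory factors tested 4 were induced at both times and 0 differed between them (edgeR, 1 at unadjusted p under 0.05, 0 with DESeq2).

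Feedback genes were partly induced. Of 19 tested, 6 were higher and 1 lower with IFN-γ at each time, and 0 differed between times (edgeR, 2 at unadjusted p under 0.05, 0 with DESeq2). Socs1, the inhibitor of JAK kinases, had 43.95, 42.3, 39.5 and 43.96 CPM in untreated and 195, 199.7, 226 and 188 CPM in treated wells at 4 hrs. At 12 hrs the values were 31.7, 35.9, 30.8 and 29.2 CPM in untreated and 172, 147, 125 and 155 CPM in treated wells. Both arms were lower at 12 hrs with no overlap, by 0.42 in treated cells (adjusted p = 0.000925) and by 0.41 in untreated cells (adjusted p = 0.159), and the effect was 4.70-fold and 4.66-fold. Socs3 rose by 1.81 and 1.79. Socs2, the member that restrains growth hormone and STAT5 signaling, was the lowered gene: it fell by 0.72 at 4 hrs (adjusted p = 0.0429) and by 1.45 at 12 hrs (adjusted p = 6.07e-06), a difference of -0.73 ± 0.36 with an adjusted p of 0.651. Its wells held 28.6, 20.6, 24.2 and 31.6 CPM without and 10.9, 11.5, 6.48 and 9.14 CPM with IFN-γ at 12 hrs.

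Among the sustained genes with the largest effects were Samhd1, Rtp4, Socs1, Rnf213, Socs3, Rnf19b, Mov10, Parp3 and AA467197. Samhd1, which depletes the nucleotides that viruses use, rose by 2.73 and 2.66 (difference -0.07, interval -0.37 to 0.23). Mov10, an RNA helicase, rose by 1.60 and 1.62, and AA467197 by 1.83 and 1.56, with the interval of its difference, -0.47 to -0.08, below 0. The median effect over the 97 was 0.55 at 4 hrs and 0.58 at 12 hrs, and the interval bound favors well-counted genes with small errors.

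MHC class I genes were already induced at 4 hrs and most were induced further at 12 hrs. All 8 tested, Nlrc5 included, were higher at both times, and 5 had a larger effect at 12 hrs: H2-K1, H2-D1, H2-T23, H2-T22 and B2m. Nlrc5 held at most 9 counts in an untreated well and could not pass the filter on low counts through untreated wells. Its calls as higher are thus no evidence by themselves. The median difference over the 8 was 0.87. H2-K1, a classical class I heavy chain, stood at 221, 214, 238 and 223 CPM in untreated and 393, 393, 413 and 376 CPM in treated wells at 4 hrs. By 12 hrs it had 226, 172, 198 and 188 CPM in untreated and 1254, 1218, 1072 and 1205 CPM in treated wells. The lowest treated well at 12 hrs was above every treated well at 4 hrs, and the effect went from 1.76-fold to 6.02-fold, a difference of 1.78 ± 0.10 on the log2 scale (SE, n = 4 wells a group, edgeR adjusted p = 2.98e-25, the lowest of all genes tested).

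H2-D1, the other classical heavy chain, had 407, 418, 426 and 476 CPM with IFN-γ at 4 hrs and 1089, 1126, 993 and 1165 CPM at 12 hrs, against 310.0, 231, 268 and 261 CPM in untreated wells at 12 hrs. Its effect went from 1.59-fold to 4.07-fold (difference 1.36 ± 0.10, adjusted p = 1.99e-18, edgeR). B2m, the light chain that every class I molecule needs, had 2604, 2632, 2616 and 2683 CPM in untreated and 4370.1, 4213, 4095 and 4194 CPM in treated wells at 4 hrs. The 12-hr values were 2623, 2461, 2925 and 2715 CPM in untreated and 7412, 7382, 6609 and 7431 CPM in treated wells. The treated groups did not overlap, and the effect went from 1.60-fold to 2.69-fold (difference 0.75 ± 0.07, adjusted p = 7.72e-15, edgeR).

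H2-T23, which encodes the nonclassical molecule Qa-1, was already 6.41-fold higher at 4 hrs and became 23.7-fold higher. Its treated wells held 149, 135, 119 and 120.0 CPM at 4 hrs and 347, 344, 349 and 338 CPM at 12 hrs, while untreated wells held 19.3, 21.2, 20.9 and 19.98 and 13.9, 11.7, 14.3 and 18.7 CPM. The difference was 1.89 ± 0.25 (adjusted p = 2.17e-08, edgeR). H2-T22 went from 3.61-fold to 7.19-fold; its call (adjusted p = 0.0132) was lost without NT_4H replicate 1 or 4, IFNy_4H replicate 2 or NT_12H replicate 1, with adjusted p up to 0.186. Class I genes are similar in sequence, and how reads shared by them were counted is not given in the sources used here.

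Nlrc5, the transactivator of class I genes, had no called change of its effect. It had 6.15, 6.74, 6.59 and 6.99 CPM in untreated and 85.7, 82.8, 76.4 and 76.3 CPM in treated wells at 4 hrs. At 12 hrs its treated wells held 94.6, 88.9, 118 and 99.8 CPM, all above those at 4 hrs. The effect was 12.0-fold at 4 hrs and 16.4-fold at 12 hrs, and the difference of 0.46 ± 0.40 could not be told from 0 (interval -0.33 to 1.25, adjusted p = 0.889, edgeR). This interval also holds the differences of B2m and H2-T22, and Nlrc5 was not tested against them.

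**Figure D2:**
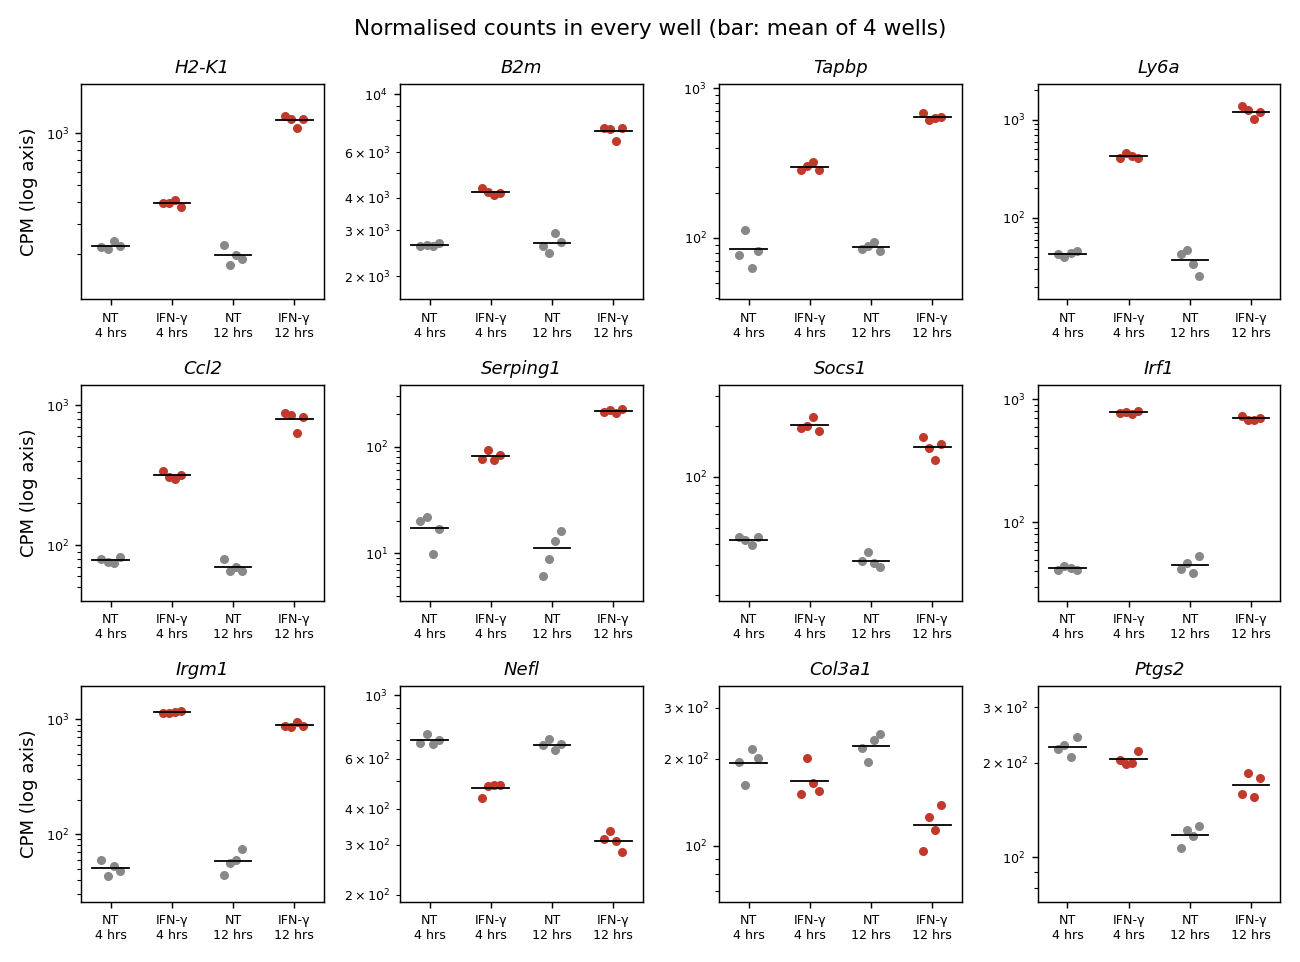
TMM-normalized CPM (log axis) of 12 genes in every well of the 4 groups, with a bar at the mean of 4 wells. Treated wells (red) rise from 4 to 12 hrs for H2-K1, B2m, Tapbp, Ly6a, Ccl2 and Serping1, lie lower at 12 hrs in both arms for Socs1, and for Ptgs2 the gap at 12 hrs goes with lower untreated wells (gray).

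Some genes that make and load class I peptides had a larger effect at 12 hrs too. Of 13 tested 10 were induced at both times, 3 had a negative difference, and 4 had a larger effect at 12 hrs: Tapbp, Erap1, Psme1 and Psme2. The median difference of the 13 was 0.59. Tapbp encodes tapasin, which bridges class I to the peptide transporter, and had 77.4, 114, 62.6 and 81.9 CPM in untreated and 284, 303, 322 and 286 CPM in treated wells at 4 hrs. Wells at 12 hrs held 85.04, 87.8, 93.6 and 81.8 CPM in untreated and 680.4, 613, 629 and 647 CPM in treated wells. No group overlapped but the untreated ones, and the effect went from 3.53-fold to 7.37-fold (difference 1.06 ± 0.14, adjusted p = 2.51e-08, edgeR). Psme1 and Psme2 encode the proteasome activator PA28. Psme1 went from 2.65-fold to 5.18-fold (difference 0.97 ± 0.10, adjusted p = 3.7e-12) and Psme2 from 3.91-fold to 6.85-fold (0.81 ± 0.12, adjusted p = 4.4e-07). Erap1, the peptidase that trims peptides in the endoplasmic reticulum, went from 3.24-fold to 7.05-fold (1.12 ± 0.24, adjusted p = 0.00461, and 0.0649 without NT_4H replicate 1).

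For the immunoproteasome subunits and the transporter, the difference of effects was not called with edgeR. Psmb9 had 14.1, 6.74, 6.59 and 7.99 CPM in untreated wells at 4 hrs and 9.28, 3.59, 9.91 and 18.7 CPM at 12 hrs, against 162, 159, 149.9 and 130.3 and 395, 351, 353 and 347 CPM in treated wells. Its treated wells rose by 1.27 between the times (adjusted p = 4.28e-20, edgeR), while the difference of effects, 1.15 ± 0.36, had an adjusted p of 0.196. Psmb8 was close to the threshold, at 1.07 ± 0.29 with an adjusted p of 0.0592 in edgeR and 0.0422 in DESeq2. Tap1, a subunit of the peptide transporter, rose in treated wells by 0.45 (adjusted p = 5.45e-06), with a difference of effects of 0.59 ± 0.22 (adjusted p = 0.43). Tap2, its partner, was 12.0-fold and 11.6-fold higher at the 2 times, with a difference of -0.05 (interval -0.76 to 0.67). Over the list, treated wells alone were higher at 12 hrs for 8 of the 13 and lower for 0 (edgeR, 4.84% and 3.57% of all genes tested).

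**Figure D3:**
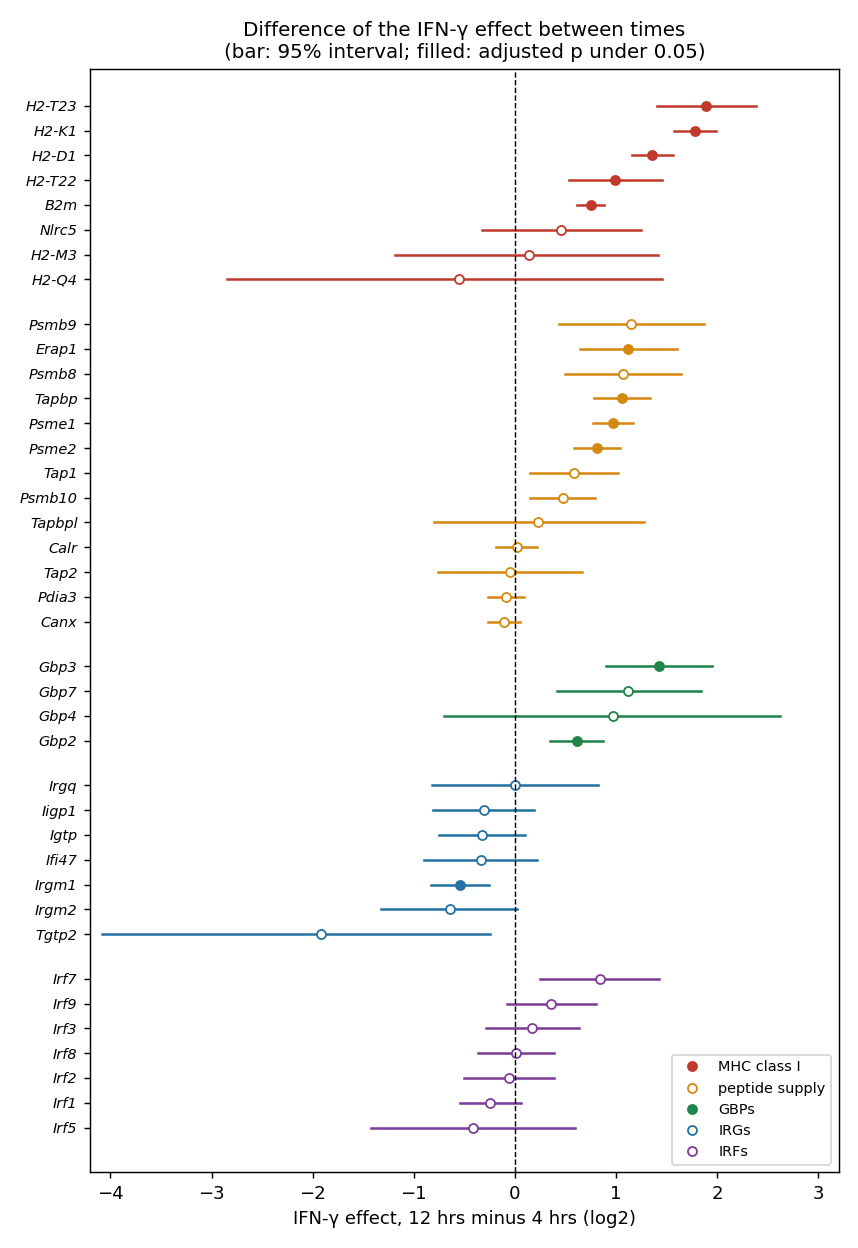
IFN-γ effect at 12 hrs minus that at 4 hrs (log2, x axis) for genes of 5 groups not at the floor of detection in untreated wells, with 95% intervals and filled points where the adjusted p was under 0.05. Class I and peptide supply genes lie mostly right of 0, the immunity-related GTPases (IRGs) at or left of 0, and genes with low untreated counts such as Tgtp2 and H2-Q4 have the widest intervals.

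Both families of interferon-inducible GTPases, which attack the vacuoles of intracellular pathogens, were induced by 4 hrs. All 7 guanylate-binding proteins tested were higher at both times, 2 had a larger effect at 12 hrs, and treated wells alone were higher at 12 hrs for 4 and lower for 0. For 3 of the 7, Gbp5, Gbp6 and Gbp9, untreated wells held too few counts to show a difference of folds. These 3 could not pass the filter on low counts through untreated wells, so that their calls as higher are no evidence by themselves. Gbp3 had 469, 454, 438 and 429 CPM with IFN-γ at 4 hrs and 722, 741, 734 and 733 CPM at 12 hrs. Untreated wells had 17.6, 14.4, 18.7 and 21.98 and 11.6, 8.96, 12.1 and 11.7 CPM, all lower at 12 hrs. The effect went from 24.6-fold to 65.7-fold (difference 1.42 ± 0.26, adjusted p = 0.000292, edgeR), with the treated wells rising by 0.71. Gbp2 had 3599.9, 3517, 3639 and 3281 CPM with IFN-γ at 4 hrs and 4780.1, 4812, 4713 and 4974 CPM at 12 hrs, and went from 57.8-fold to 88.2-fold. Its difference of 0.61 ± 0.13 (adjusted p = 0.00526, edgeR) lost its call without NT_12H replicate 2 or 3, with adjusted p up to 0.0785.

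Of 10 immunity-related GTPases tested 9 were induced at both times, 0 had a larger effect at 12 hrs (edgeR, 0 at unadjusted p under 0.05 and 0 with DESeq2) and 1 a smaller one. For 3 of the 10, Tgtp1, Gm4951 and Gm4841, untreated wells held too few counts to show a difference of folds. As with the 3 guanylate-binding proteins, they could not pass the filter through untreated wells, and their calls as induced are no evidence by themselves. Treated wells alone were lower at 12 hrs for 3 of the 10 and higher for 0. The 2 families were not tested against each other. Irgm1, a regulator of the other family members and of autophagy, had 58.9, 43.3, 52.7 and 47.95 CPM in untreated and 1145, 1147, 1171 and 1187 CPM in treated wells at 4 hrs. At 12 hrs the values were 44.1, 55.6, 59.4 and 74.8 CPM in untreated and 883, 868, 944 and 882 CPM in treated wells. Every treated well at 12 hrs lay below every one at 4 hrs, a fall of 0.38 (adjusted p = 6.25e-07, edgeR). The effect went from 22.8-fold to 15.6-fold, a difference of -0.55 ± 0.14 whose adjusted p of 0.0493 was close to the threshold and passed it in 3 of 16 fits with 1 well left out (adjusted p 0.00536 to 0.369). Irgm1 was the only induced gene with a larger effect at 4 hrs. Its call was also lost with a replicate block (adjusted p = 0.0526, edgeR) and with no filter on low counts (adjusted p = 0.051, edgeR).

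Igtp had 1096, 1190.1, 1171 and 1163 CPM with IFN-γ at 4 hrs and 929, 913, 923 and 900.3 CPM at 12 hrs, with no overlap. This fall of 0.34 in treated wells passed the test (adjusted p = 1.24e-05, edgeR), and the difference of its effects, 57.3-fold and 45.7-fold, did not (-0.32 ± 0.21, adjusted p = 0.834). Irgm2 and Ifi47 had differences of -0.65 ± 0.34 and -0.34 ± 0.28, with adjusted p of 0.72 and 0.871. Tgtp1 and Tgtp2 are near-identical copies whose separate counts are uncertain.

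Antiviral effectors were widely induced and partly grew. Of 32 tested 24 were higher at 4 hrs and 28 at 12 hrs, 6 had a larger effect at 12 hrs, and 0 a smaller one (edgeR, 0 at unadjusted p under 0.05 and 0 with DESeq2). Treated wells alone were higher at 12 hrs for 20 of the 32. The 6 were Bst2, Ifitm3, Ifit1, Ifit3, Isg15 and Ifi27. Bst2, tetherin, which holds budding virus at the membrane, had 196, 180.1, 204 and 222 CPM without and 1048, 962, 837 and 922 CPM with IFN-γ at 12 hrs. It went from 2.30-fold to 4.71-fold (difference 1.04 ± 0.12, adjusted p = 1.19e-09, edgeR). Ifit1, which binds foreign RNA caps, went from 1.83-fold to 3.66-fold. Ifitm3, which blocks viral entry, went from 2.08-fold to 3.21-fold.

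Ifit3 had 133, 133, 135 and 103 CPM with IFN-γ at 4 hrs and 326, 286, 239 and 255 CPM at 12 hrs, and went from 3.77-fold to 7.58-fold (1.01 ± 0.21, adjusted p = 0.00338, and 0.0644 without NT_4H replicate 4). Isg15, a ubiquitin-like modifier, had 235, 201, 218 and 224 CPM at 4 hrs and 379.6, 393, 253 and 383 CPM at 12 hrs with IFN-γ. The third of these 12-hr wells lies near the 4-hr wells, the others well above them. Its difference of 0.76 ± 0.18 (adjusted p = 0.0163, edgeR) lost its call in 5 of 16 fits with 1 well left out (NT_4H replicate 4, IFNy_4H replicate 2, NT_12H replicates 1 and 2, IFNy_12H replicate 2), with adjusted p up to 0.0901. Rnf213 and Samhd1 of the same list were sustained.

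Most sensors of foreign nucleic acid were induced. Of 17 tested 12 were higher at 4 hrs and 14 at 12 hrs, and 0 had a different effect at the 2 times (edgeR, 3 at unadjusted p under 0.05, 0 with DESeq2). Treated wells alone were higher at 12 hrs for 4 of the 17 and lower for 0. Zbp1, a sensor of Z-form nucleic acid that can start necroptosis, had 3.52, 5.77, 8.78 and 5.99 CPM in untreated and 109, 106, 113 and 96.8 CPM in treated wells at 4 hrs. At 12 hrs treated wells held 256, 235, 214 and 273 CPM, a rise of 1.22 between the times (adjusted p = 1.69e-17, edgeR), while the difference of effects, 1.57 ± 0.45, had an adjusted p of 0.0863. Zbp1 held at most 8 counts in an untreated well and could not pass the filter on low counts through untreated wells. Its calls as higher are thus no evidence by themselves. Sting1, the adaptor of cytosolic DNA sensing, was higher at 12 hrs in both arms. It had 58.02, 71.2, 70.3 and 52.9 CPM in untreated wells at 4 hrs and 98.2, 84.2, 82.6 and 101 CPM at 12 hrs, a rise of 0.54 (adjusted p = 0.00323). The IFN-γ effect of 2.22-fold at 4 hrs and 1.91-fold at 12 hrs differed by -0.22 ± 0.16 (adjusted p = 0.853).

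Of 8 chemokines tested 3 were higher with IFN-γ at 4 hrs, 4 were higher and 1 lower at 12 hrs, and 2, Ccl2 and Ccl7, had a larger effect at 12 hrs. The list as a whole did not share this direction: 5 of the 8 had a negative difference, 2 of these at an unadjusted p under 0.05, and the median was -0.15. DESeq2 called 1, Ccl2, and gave Ccl7 no adjusted p. Ccl2, which draws monocytes through CCR2, had 79.996, 76.01, 74.6 and 82.9 CPM in untreated and 338, 309.5, 298 and 315 CPM in treated wells at 4 hrs. By 12 hrs it had 79.6, 65.4, 70.5 and 65.5 CPM in untreated and 878, 856, 636 and 824 CPM in treated wells. Its effect went from 4.01-fold to 11.3-fold (difference 1.49 ± 0.16, adjusted p = 1.32e-11, edgeR). Ccl7, a ligand of the same receptor, was barely counted: treated wells held 9.796, 13.1, 7.35 and 11.1 CPM at 4 hrs and 25.5, 29.3, 17.3 and 20.8 CPM at 12 hrs, and untreated wells 6.15, 5.77, 6.59 and 5.99 and 2.32, 4.48, 2.202 and 0 CPM. Its difference, 2.41 ± 0.59, was the highest of all called genes (adjusted p = 0.0182, edgeR). The call was lost without NT_12H replicate 1 or 4 or IFNy_12H replicate 2, with adjusted p up to 0.0792. Untreated wells held 0 to 7 counts of Ccl7, and treated wells 5 to 15 at 4 hrs and 16 to 28 at 12 hrs. Ccl7 could not pass the filter on low counts through untreated wells, so that its calls and this rank are no evidence by themselves.

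Cxcl10, which draws T cells through CXCR3, was 5.48-fold higher at 4 hrs and 7.04-fold at 12 hrs. Treated wells held 244, 221, 235 and 266 CPM at 4 hrs and 222, 318, 187 and 228 CPM at 12 hrs, which overlap, and the difference of 0.36 ± 0.22 did not pass the test (adjusted p = 0.788, edgeR). Cxcl9, a ligand of the same receptor, had 46.4, 31.4, 36.3 and 51.4 CPM without and 44.9, 42.9, 36.7 and 47.4 CPM with IFN-γ at 12 hrs. These groups overlap, and the effects of 1.11-fold and 1.05-fold were not called at 4 or 12 hrs (adjusted p = 0.791 and 0.905). Cx3cl1 was 5.85-fold and 4.07-fold higher (difference -0.52 ± 0.23, adjusted p = 0.585).

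Genes of other kinds stood among the highest differences too. Serping1, the inhibitor of complement C1, was the only complement gene of 20 listed that passed the filter on low counts. It had 20.2, 22.1, 9.88 and 16.98 CPM in untreated and 75.9, 92.4, 74.96 and 83.1 CPM in treated wells at 4 hrs. The 12-hr values were 6.18, 8.96, 13.2 and 16.4 CPM in untreated and 211, 221, 207 and 226 CPM in treated wells, so that its effect went from 4.67-fold to 20.3-fold (difference 2.12 ± 0.32, adjusted p = 1.91e-06, edgeR). Ly6a, the stem cell antigen Sca-1, had 411, 455, 428 and 406 CPM with IFN-γ at 4 hrs and 1367, 1249, 1011 and 1195 CPM at 12 hrs. It went from 9.80-fold to 31.2-fold (1.67 ± 0.18, adjusted p = 1.1e-11). Ly6c1, of the same family of surface proteins, had 71.02, 65.4, 47.03 and 75.4 CPM at 4 hrs and 209.8, 201, 183 and 214 CPM at 12 hrs with IFN-γ; its difference of 2.06 ± 0.48 (adjusted p = 0.0123) lost its call without NT_4H replicate 4 or NT_12H replicate 2, with adjusted p up to 0.322. Untreated wells had no more than 9.99 CPM of Ly6c1, which could not pass the filter on low counts through them. Its calls as higher are thus no evidence by themselves. The Ly6 genes are similar in sequence and their counts may share reads.

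Of 9 checkpoint ligands and immune-modulating enzymes tested 3 were higher at 4 hrs and 3 at 12 hrs, and 0 differed between the times (edgeR, 1 at unadjusted p under 0.05, 0 with DESeq2). Cd274, which encodes PD-L1, had 7.91, 4.81, 5.49 and 2.997 CPM in untreated and 95.5, 112, 115 and 91.7 CPM in treated wells at 4 hrs. Wells at 12 hrs held 3.09, 2.69, 6.61 and 2.34 CPM in untreated and 75.2, 82.6, 97.2 and 93.1 CPM in treated wells. Untreated wells held at most 9 counts, and Cd274 could not pass the filter on low counts through them. Its calls as higher are thus no evidence by themselves. Treated groups overlap, and the effects of 18.7-fold and 23.6-fold differed by 0.33 ± 0.48 (interval -0.62 to 1.31, adjusted p = 0.939, edgeR), an interval too wide to call it sustained. Of 8 MHC class II genes tested 0 were called for IFN-γ at 4 or at 12 hrs with edgeR, 1 and 0 had an unadjusted p under 0.05, and DESeq2 called 0 at both. Treated wells alone were higher at 12 hrs for 1 of the 8. Cd74, the class II invariant chain, had 153, 168, 132 and 145 CPM without and 177, 146, 164 and 184 CPM with IFN-γ at 12 hrs, which overlap. Ciita, the class II transactivator, did not pass the filter on low counts. It had 0 to 1 counts in untreated and 3 to 4 in treated wells at 4 hrs, with no overlap, and 0 to 3 and 2 to 8 counts at 12 hrs.

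Of all genes tested, 4.37% were higher and 0.889% lower at 4 hrs, and 6.13% higher and 2.41% lower at 12 hrs. An unadjusted p under 0.05 for the difference was found for 689 of the 9332 (edgeR). The lists that follow stand beside these shares. Of 6 interferon-induced PARP genes all 6 were higher at both times and 0 differed between them (edgeR, 0 at unadjusted p under 0.05, 0 with DESeq2). Of 27 immediate-early genes 6 were higher at 4 hrs and 8 at 12 hrs, and 0 differed (edgeR, 1 at unadjusted p under 0.05, 0 with DESeq2). Treated wells alone were higher at 12 hrs for 1 of the 27 and lower for 6. The gene under 0.05, Egr1, had a difference of 0.68 ± 0.19 with an adjusted p of 0.0855, and 0.0471 when only the 16 wells were fitted. Of 19 p53 targets and arrest genes 0 were called at 4 hrs and 1 was higher at 12 hrs. Another, Cdkn1a, which encodes the cyclin-dependent kinase inhibitor p21, had a higher effect at 12 hrs (difference 0.59 ± 0.15, adjusted p = 0.042, edgeR). The effect on Cdkn1a was called at neither time (-0.27, adjusted p = 0.168, and 0.33, adjusted p = 0.0514, edgeR). Its call for the difference was lost in 12 of 16 fits with 1 well left out. With a mean count of at least 10 it was lost too (adjusted p = 0.0516, edgeR). Of 17 pyroptosis, necroptosis and death-receptor genes 9 were higher at 4 hrs, 10 were higher and 1 lower at 12 hrs, and 0 differed (edgeR, 3 at unadjusted p under 0.05, 0 with DESeq2). Of 16 NF-kappaB genes 3 were higher at 4 hrs, 3 were higher and 1 lower at 12 hrs, and 0 differed (edgeR, 0 at unadjusted p under 0.05, 0 with DESeq2). Of 42 cell-cycle genes 1 was higher at 4 hrs and 3 at 12 hrs, and 0 differed (edgeR, 5 at unadjusted p under 0.05, 0 with DESeq2). Of 26 genes of sterol synthesis and uptake 21 had a negative difference, beside 4517 of all 9332 genes tested, with a median of -0.12 beside 0.01, and 0 passed the test (edgeR, 2 at unadjusted p under 0.05, 0 with DESeq2).

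Genes lowered by IFN-γ were fewer than induced genes at each time. Of the 190 called lower at 12 hrs and not at 4 hrs, 7 passed the test of the difference. Of 33 extracellular matrix genes 2 were higher and 2 lower at 4 hrs, 2 were higher and 10 lower at 12 hrs, and 3, Col3a1, Col6a1 and Sparc, had a lower effect at 12 hrs. Of the 33, 20 had a negative difference, beside 4517 of all 9332 genes tested, with a median of -0.16 beside 0.01. Treated wells alone were higher at 12 hrs for 2 of the 33 and lower for 9, beside 4.84% and 3.57% of all genes tested. Col3a1, a fibrillar collagen, had 195, 163, 215 and 202 CPM in untreated and 151, 201, 165 and 154 CPM in treated wells at 4 hrs, which overlap. At 12 hrs the values were 218, 195, 231 and 243 CPM in untreated and 95.8, 125, 113 and 138 CPM in treated wells, with no overlap. Its effect was -0.19 at 4 hrs (adjusted p = 0.33) and -0.88 at 12 hrs, a difference of -0.69 ± 0.14 (adjusted p = 0.00105, edgeR). Sparc, a collagen-binding glycoprotein, had 2699.6, 2617, 2549 and 2540.5 CPM in untreated and 1845, 1871, 1795 and 1998 CPM in treated wells at 12 hrs. Its effect of -0.16 at 4 hrs became -0.47 (difference -0.31 ± 0.07, adjusted p = 0.00772), and the interval of -0.45 to -0.17 also lies inside the bound for sustained genes. Between the times untreated wells of Sparc rose by 0.17 (adjusted p = 0.0235, edgeR). The change of -0.14 in its treated wells was not called (adjusted p = 0.0629, edgeR). Col6a1, a subunit of the microfibrillar collagen VI, differed by -0.55 ± 0.14 (adjusted p = 0.0241) and lost its call in 7 of 16 fits with 1 well left out (adjusted p up to 0.0915).

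Nefl, Dpysl3 and Igfbp3 were lowered genes outside this list. Nefl, the neurofilament light chain, had 679, 735, 676 and 700.3 CPM in untreated and 436, 480.4, 487 and 485 CPM in treated wells at 4 hrs. By 12 hrs it had 668, 702, 646 and 673 CPM in untreated and 314, 335, 308 and 283 CPM in treated wells, the 2 treated groups not overlapping. Its effect went from -0.56 to -1.12 (difference -0.56 ± 0.09, adjusted p = 2.21e-05, edgeR). Dpysl3, a regulator of growth cones, had 248, 251, 228 and 268 CPM in untreated and 252, 249, 295 and 239 CPM in treated wells at 4 hrs, which overlap. The 12-hr values were 273, 315, 283 and 305 CPM in untreated and 179.5, 184, 199 and 201 CPM in treated wells. Its effect of 0.04 at 4 hrs became -0.62 (difference -0.66 ± 0.11, adjusted p = 2.73e-05). Igfbp3, which binds insulin-like growth factors, went from -0.21 to -0.56 (difference -0.35 ± 0.08, adjusted p = 0.00371).

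The lowest called differences, those of Slitrk6 and Akap12, belonged to genes with few counts. Slitrk6, a neuronal membrane protein, had 18.4, 10.5, 30.9 and 20.6 CPM with IFN-γ at 4 hrs and 2.43, 5.23, 5.401 and 4.99 CPM at 12 hrs, against 7.73, 15.2, 14.3 and 14.03 CPM in untreated wells at 12 hrs. Its difference of -1.82 ± 0.48 (adjusted p = 0.0409, edgeR) lost its call in 13 of 16 fits with 1 well left out. Akap12, a scaffold for protein kinase A, had 18.5, 16.4, 15.4 and 19.98 CPM in untreated wells at 4 hrs and 29.4, 29.6, 33.03 and 23.4 CPM at 12 hrs, and 4.85, 10.5, 9.72 and 9.14 CPM in treated wells at 12 hrs. Its difference of -1.51 ± 0.39 (adjusted p = 0.0409) lost its call in 12 of 16. Dmp1, an acidic matrix phosphoprotein of bone, was lower at 12 hrs in both arms: untreated wells went from 191, 194, 183 and 168 CPM to 89.7, 125, 111 and 103 CPM and treated wells from 158, 121, 141 and 127 CPM to 52.2, 36.6, 50.8 and 47.4 CPM. Its difference was -0.75 ± 0.18 (adjusted p = 0.0224), lost in 4 of 16 fits. Pon2, Plac9a and Tpgs2 differed by -0.80, -0.55 and -0.45 and lost their calls in 10, 4 and 9 of 16.

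A larger effect at 12 hrs can come from either arm, and the 2 arms were therefore tested apart. Between 4 and 12 hrs 452 genes were higher and 333 lower in IFN-γ-treated cells, and 217 were higher and 240 lower in untreated cells (edgeR, 4.84%, 3.57%, 2.33% and 2.57% of genes tested). DESeq2 called 281 and 233 in treated and 127 and 168 in untreated cells. Of the 41 genes whose effect was higher at 12 hrs, 32 were higher at 12 hrs in treated cells with no call in untreated cells. The class I, peptide supply, antiviral and chemokine genes among the 41 were all of this kind by these calls. Some of these differences also held a lower untreated level with no overlap and no call. For Ccl7 the change was -1.31 in untreated wells (adjusted p = 0.127), beside 1.10 in treated wells (adjusted p = 0.00527, edgeR). For H2-T23 it was -0.49 in untreated wells (adjusted p = 0.256), beside 1.396 in treated wells (adjusted p = 1.3e-24, edgeR). The other 9 were lower at 12 hrs in untreated cells: 7 of these had no call in treated cells and 2 were lower there too. Of the 13 genes whose effect was lower at 12 hrs, 10 were lower at 12 hrs in treated cells. In untreated cells 3 were higher: Dpysl3 of those 10, and Sparc and Akap12, which had no call in treated cells. Pon2 had no call in either arm.

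The 9 genes with lower untreated wells were Hip1r, Ptgs2, Bnip3, Bcl6b, Mt2, Noct, Cdkn1a, Grem1 and Sdc2, and Ptgs2, Bnip3, Bcl6b, Mt2, Noct, Grem1 and Sdc2 were chosen for naming after their values were seen. Ptgs2, which encodes cyclooxygenase 2, had 222, 227, 209 and 241 CPM in untreated wells at 4 hrs and 107, 122, 117 and 126 CPM at 12 hrs, and 204, 198, 199.9 and 218 CPM and 159, 186, 156 and 179 CPM in treated wells. All 4 groups were apart but for treated and untreated wells at 4 hrs, with a fall of 0.94 in untreated (adjusted p = 8.39e-14) and of 0.27 in treated cells (adjusted p = 0.0369, edgeR). Bnip3, a mitophagy receptor induced by low oxygen, had 235, 225, 186 and 199 CPM in untreated wells at 4 hrs and 128, 139, 117 and 127 CPM at 12 hrs. Its treated wells held 225, 213, 229 and 231 CPM and 252, 201, 215 and 226 CPM, a change of -0.01 (adjusted p = 0.978). Mt2, a metal-binding metallothionein, fell by 1.38 in untreated (adjusted p = 2.87e-13) and by 0.59 in treated cells (adjusted p = 2.86e-05), and its call for the difference was lost without NT_12H replicate 2 (adjusted p = 0.0538) and with DESeq2 (0.80, adjusted p = 0.126). Bcl6b lost its call without NT_4H replicate 1 (adjusted p = 0.0692). The calls of Hip1r, Cdkn1a, Grem1 and Sdc2 were lost in 12, 12, 11 and 12 of 16 fits with 1 well left out.

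Grem1, an antagonist of bone morphogenetic proteins, was the only lowered gene with a larger effect at 4 hrs. It had 337, 375, 348 and 337 CPM in untreated and 283, 251, 251 and 285 CPM in treated wells at 4 hrs, with no overlap. Wells at 12 hrs held 246, 268, 254 and 242 CPM in untreated and 251, 257, 270.1 and 248 CPM in treated wells, which overlap. The effect of -0.38 at 4 hrs (adjusted p = 3.76e-05) was 0.02 at 12 hrs (adjusted p = 0.939), while untreated cells fell by 0.47 between the times (adjusted p = 1.02e-06, edgeR). The call of Grem1 for the difference (adjusted p = 0.0409, edgeR) was lost in 11 of 16 fits with 1 well left out. It was also lost with no filter on low counts (0.0791), a mean count of at least 10 (0.0533) and a replicate block (0.0524).

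**Figure D4:**
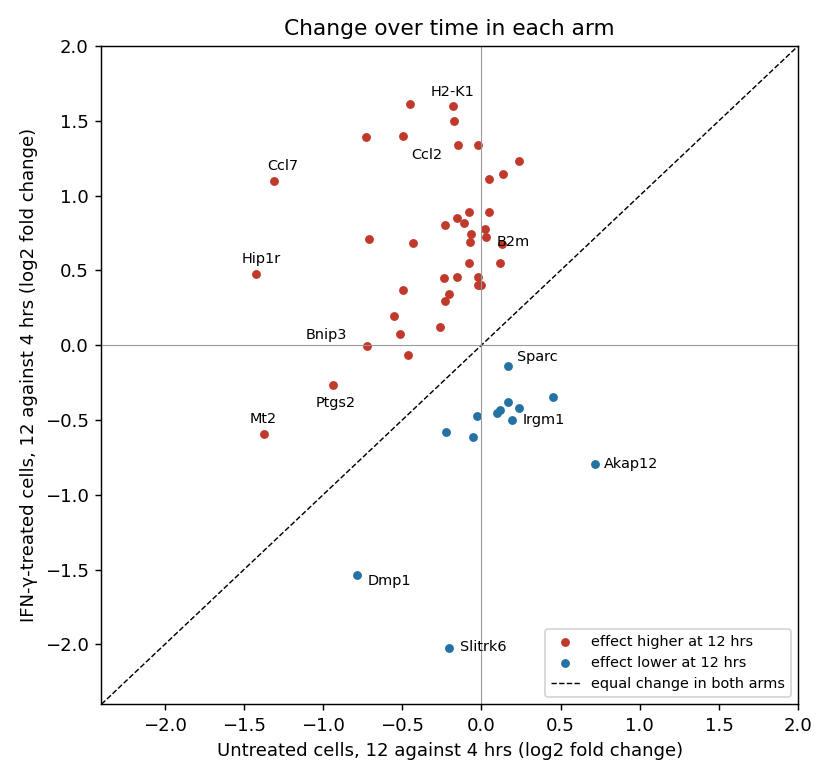
Change from 4 to 12 hrs (log2 fold change) in untreated cells (x axis) and in IFN-γ-treated cells (y axis) for the 41 genes with a higher (red) and the 13 with a lower (blue) IFN-γ effect at 12 hrs. Most red genes lie high near the vertical zero line, where treated cells rose; Ptgs2, Bnip3, Mt2 and Hip1r lie to the left, where untreated cells fell.

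For 13 induced genes every untreated well held at most 3 counts, so that only a lower bound of the fold, and no difference of folds, can be given. They could not pass the filter on low counts through untreated wells, so that being called higher is no evidence by itself. Fas, of the death-receptor list, and Il15, of the NF-kappaB list, are among these 13. The same limit of the filter holds for Nlrc5, Cd274, Zbp1 and Ccl7, with at most 9, 9, 8 and 7 counts in an untreated well. It holds for Ly6c1 too, with at most 10, and other induced genes with few untreated counts may share it. For the 13, treated wells of the 2 times were compared directly. Apol6, an apolipoprotein L, had 36.7, 55.8, 45.6 and 46.3 CPM with IFN-γ at 4 hrs and 70.3, 80.5, 78.9 and 85.6 CPM at 12 hrs, a rise of 0.76 ± 0.15 (adjusted p = 0.000126, edgeR). Against a floor of 3 counts per library it was at least 13.998-fold higher at 4 hrs and at least 22.5-fold at 12 hrs. Slfn8, of the Schlafen family, rose by 1.20 ± 0.37 (adjusted p = 0.025), from a mean of 6.80 to 15.8 CPM. The other 11 (Gbp5, Gbp6, Gbp9, Tgtp1, Gm4951, Gm4841, Gm12185, Il15, Il15ra, Il12rb1 and Fas) had no called change. Among them, Il15ra, the receptor chain that presents IL-15, had means of 25.3 and 25.2 CPM, at least 7.69-fold and 7.18-fold higher with IFN-γ.

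Promoters of 5 genes are shown because they span the time classes: Irf1 and Socs1, with no called difference between the effects at 4 and 12 hrs, Irgm1, with a larger effect at 4 hrs, and B2m and H2-T23, with a larger one at 12 hrs. The 250 bases before the start site are taken from RefSeq (GRCm38.p6, a build other than the one the reads were aligned to), 5′ to 3′ on the gene's strand. Capitals mark the letters TTCNNNGAA of a GAS element or, for an ISRE core, GAAA, any 2 bases and GAAA again, searched on both strands; 2 overlapping cores run together.
Irf1 (chr11:53769764-53770013, plus strand): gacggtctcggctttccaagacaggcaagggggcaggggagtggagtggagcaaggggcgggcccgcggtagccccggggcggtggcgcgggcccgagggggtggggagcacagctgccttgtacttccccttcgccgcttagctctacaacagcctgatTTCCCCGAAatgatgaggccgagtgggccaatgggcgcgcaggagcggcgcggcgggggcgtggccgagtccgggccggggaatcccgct
Socs1 (chr16:10785537-10785786, minus strand): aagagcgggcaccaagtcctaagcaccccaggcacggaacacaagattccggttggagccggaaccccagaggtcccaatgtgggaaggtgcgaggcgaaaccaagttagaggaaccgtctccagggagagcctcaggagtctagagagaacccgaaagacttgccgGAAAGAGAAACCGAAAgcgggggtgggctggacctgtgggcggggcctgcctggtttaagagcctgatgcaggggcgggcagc
Irgm1 (chr11:48871421-48871670, minus strand): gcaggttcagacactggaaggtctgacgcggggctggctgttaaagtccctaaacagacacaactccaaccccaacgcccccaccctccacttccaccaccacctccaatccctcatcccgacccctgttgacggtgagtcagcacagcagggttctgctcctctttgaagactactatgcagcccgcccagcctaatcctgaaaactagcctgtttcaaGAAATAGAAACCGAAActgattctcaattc
B2m (chr2:122147437-122147686, plus strand): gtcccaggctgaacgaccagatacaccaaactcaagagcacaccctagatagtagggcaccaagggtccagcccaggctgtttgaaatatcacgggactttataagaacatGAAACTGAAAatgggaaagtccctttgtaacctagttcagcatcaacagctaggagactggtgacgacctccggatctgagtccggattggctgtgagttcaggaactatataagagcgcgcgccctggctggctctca
H2-T23 (chr17:36032702-36032951, minus strand): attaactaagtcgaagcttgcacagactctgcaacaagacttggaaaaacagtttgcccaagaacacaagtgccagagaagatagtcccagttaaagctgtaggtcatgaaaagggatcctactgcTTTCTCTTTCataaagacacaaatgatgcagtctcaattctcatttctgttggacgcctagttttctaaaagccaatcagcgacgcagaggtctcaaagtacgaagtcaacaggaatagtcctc
Irf1 holds 1 GAS match 82 to 90 bases before its start. Socs1 and Irgm1 each hold 2 overlapping ISRE cores, 68 to 83 and 15 to 30 bases before the start. B2m holds 1 core, 130 to 139 bases before it, and H2-T23 1 core on the reverse strand, 115 to 124 bases before it. Among these 5 genes, picked to span the classes, the ISRE core stood before genes of different time classes. This says nothing of its share in each class, which is given next.

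Across classes, the counts describe these windows only. Of 9332 genes tested 7473 had such a window, and 3.24% held an ISRE core and 6.88% a GAS match. Of the 39 induced genes with a larger effect at 12 hrs 27 had a window, of which 9 (33.3%) held an ISRE core and 1 (3.7%) a GAS match. Among 81 of the 97 sustained genes 3 (3.7%) held an ISRE core and 9 (11.1%) a GAS match. Among 279 of the 346 genes called higher at both times the shares were 18.3% and 13.98%. Among 119 of the 143 of these with a negative difference 16 (13.4%) held an ISRE core and 20 (16.8%) a GAS match. Among 181 of the 226 genes called higher at 12 hrs and not at 4 hrs 8 (4.42%) held an ISRE core and 6 (3.31%) a GAS match.

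The same difference in time was measured in the other 16 wells, all given Activin-A, which share no well with the first 16. This comparison was added after the first results were seen. There the effect of IFN-γ was higher at 12 hrs for 33 genes and lower for 28 (edgeR, 0.354% and 0.3% of genes tested). Of the 41 genes higher at 12 hrs without Activin-A, all 41 had a positive difference with it and 22 were called, with medians of 0.81 and 0.65. H2-K1 differed by 1.78 without and 1.56 with Activin-A, B2m by 0.75 and 0.69, Tapbp by 1.06 and 1.22, Ly6a by 1.67 and 1.78, and Ccl2 by 1.49 and 1.35. Each of these 5 passed the test in both sets of wells. Psmb9, not called without Activin-A, differed by 1.499 with it (adjusted p = 0.0342).

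Of the 13 genes lower at 12 hrs, 9 were negative with Activin-A and 6 were called. Col3a1 differed by -0.69 without and -0.60 with Activin-A, Col6a1 by -0.55 and -0.71, Dpysl3 by -0.66 and -0.73, and Sparc by -0.31 and -0.50. Irgm1 differed by -0.10 with Activin-A (adjusted p = 0.888), against -0.55 without it. Slitrk6, Dmp1, Pon2 and Tpgs2 had the opposite sign with Activin-A, at 0.73, 0.31, 0.20 and 0.13, none of them called. The difference between both sets of wells passed the test for 0 genes in either direction with edgeR and with DESeq2 (501 had an unadjusted p under 0.05), so that no gene is shown to differ; it was -2.55 for Slitrk6 (adjusted p = 0.628) and -1.06 for Dmp1 (adjusted p = 0.258).

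**Figure D5:**
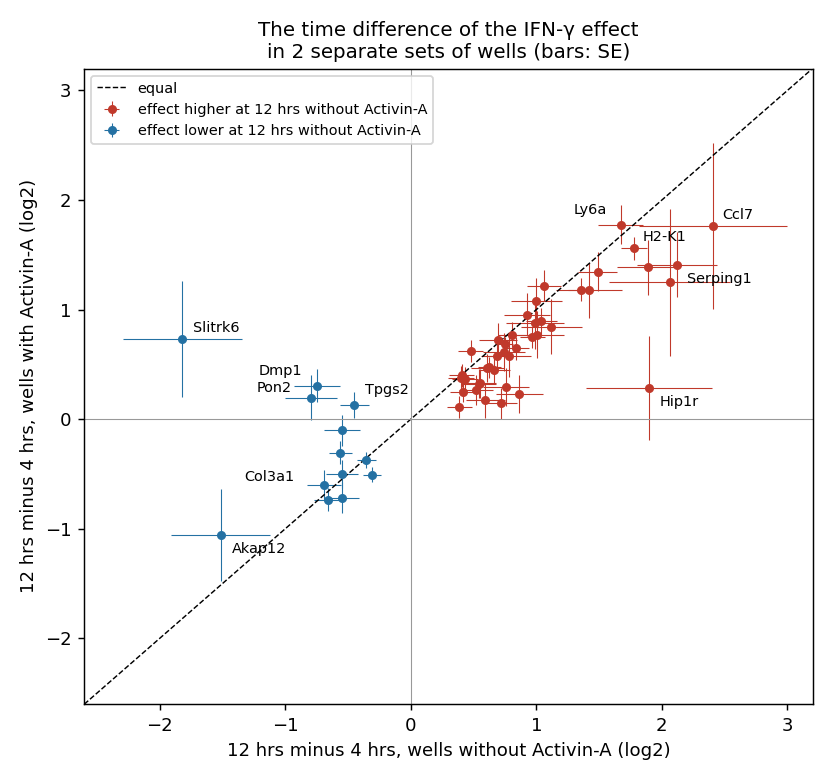
IFN-γ effect at 12 hrs minus that at 4 hrs (log2, bars SE) in the 16 wells without Activin-A (x axis) and in the 16 wells with it (y axis), for the 54 genes called in the wells without Activin-A. All 41 red genes lie above 0 on the y axis, and 4 of the 13 blue genes, Slitrk6, Dmp1, Pon2 and Tpgs2, lie above 0 as well.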

How the data were processed

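The authors deposited raw counts per Ensembl gene for 32 BRB-seq libraries, each a pool-barcoded well; the submitters' processing notes name STAR 2.7.10b, featureCounts, DESeq2 1.36.0 and the mouse build GRCm39 (mm39). How unique molecular identifiers and reads shared by similar genes were counted, and the annotation, are not given in the sources used here. Gene symbols came from GENCODE (12437 of 12451 matched).

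Low counts were filtered with filterByExpr, leaving 9332 genes. Groups of all 32 wells were fitted together, with TMM scaling and edgeR 4.0.16's quasi-likelihood test (R 4.3.3), and p-values were adjusted by Benjamini-Hochberg with a threshold of 0.05. Values in the text are TMM-normalized CPM, counts scaled to library size, and folds are fitted. The code was tested on simulated data. Members and gene lists were chosen with earlier results of these data known. Genes were named by a rule: the 12 highest and 12 lowest called differences, the 10 sustained genes with the largest effects, up to 5 members of each list, and a short fixed set (1 gene that the rule names is not reported here); Ptgs2, Bnip3, Bcl6b, Mt2, Noct, Grem1, Sdc2, Wars, Ly6e, Ube2l6, Slfn8, Apol6, Il15ra, Il12rb1 and Gm12185, and the list members beyond those 5 (Psmb9, Tap1, Tap2, Jak2, Ifi27, Il15, Fas and others), were added after their values were seen. Alternatives were DESeq2 1.42.0, RLE scaling, other filters and thresholds, only 16 wells, a replicate block and leaving out each well.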

Additional observations from a re-analysis of the deposited data

Results flagged for a closer look

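One well stood apart from the other 3 of its group, by Dixon's criterion, in 10 of 176 groups of 4 examined, and chance marks about 1 in 20. The well differed by gene. With IFN-γ at 12 hrs it was replicate 3 for B2m (6609 CPM) and Isg15 (253), and replicate 1 for Psmb9 (395) and Slitrk6 (2.43). With IFN-γ at 4 hrs it was replicate 4 for Ifit3 (103 CPM) and replicate 1 for Nefl (436). In untreated cells at 12 hrs it was replicate 2 for Gbp3 (8.96 CPM) and replicate 1 for Slitrk6 (7.73). At 4 hrs it was replicate 4 for Mt2 (157 CPM) and replicate 1 for Apol6 (0.879).

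The IFN-γ effect differed between 12 and 4 hrs, by edgeR's test of the difference itself, for 41 genes in the higher and 13 in the lower direction. On the log2 scale the class I and peptide supply genes differed by 1.78 (H2-K1), 1.36 (H2-D1), 1.89 (H2-T23), 0.99 (H2-T22), 0.75 (B2m), 1.06 (Tapbp), 1.12 (Erap1), 0.97 (Psme1) and 0.81 (Psme2). The GTPases differed by 0.61 (Gbp2), 1.42 (Gbp3) and -0.55 (Irgm1), and the chemokines by 1.49 (Ccl2) and 2.41 (Ccl7). Serping1 differed by 2.12, Ly6a by 1.67, Ly6c1 by 2.06 and Ly6e by 0.84. Antiviral and related genes differed by 1.04 (Bst2), 0.63 (Ifitm3), 1.00 (Ifit1), 1.01 (Ifit3), 0.76 (Isg15), 0.52 (Ifi27), 0.93 (Ube2l6) and 0.55 (Wars). Wars lost its call without NT_4H replicate 2 or 4 or NT_12H replicate 1 or 2 (edgeR, adjusted p up to 0.139). Genes with lower untreated wells at 12 hrs differed by 0.59 (Cdkn1a), 0.67 (Ptgs2), 0.72 (Bnip3), 0.78 (Mt2), 0.40 (Grem1) and 1.90 (Hip1r). The lowered genes differed by -0.69 (Col3a1), -0.55 (Col6a1), -0.31 (Sparc), -0.35 (Igfbp3), -0.56 (Nefl), -0.75 (Dmp1), -0.66 (Dpysl3), -1.51 (Akap12) and -1.82 (Slitrk6).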

How the results depend on the processing

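RLE scaling moved the median difference over all genes from 0.0096 to 0.0051, and no count by over 1.5 times. The lowered genes were the more dependent on settings, and the cause was not tested. With DESeq2, 55 genes were lower at 4 hrs, 281 were higher with time in treated and 127 in untreated cells. With only the 16 wells fitted, the effect was lower at 12 hrs for 30 genes, of which 29 were lowered genes with a larger effect at 12 hrs, and 2 lowered genes had a larger effect at 4 hrs. At an adjusted p under 0.01 the effect was higher at 12 hrs for 27 and lower for 5 genes, 47 were lower at 4 hrs and 117 at 12 hrs, 252 rose and 182 fell with time in treated and 104 and 130 in untreated cells, and Activin-A wells gave 21 and 18; the classes then held 0 induced and 0 lowered genes larger at 4 hrs, 5 lowered genes larger at 12 hrs and 11 lowered sustained genes. With an absolute log2 change of at least 0.5 required, 40 were lower at 4 hrs and 101 at 12 hrs, 278 rose and 145 fell in treated and 123 and 93 in untreated cells. Sustained genes numbered 22 induced and 4 lowered with a bound of 0.3, and 228 induced with a bound of 1. The single induced and lowered genes larger at 4 hrs, Irgm1 and Grem1, were lost (0 and 0) with no filter on low counts, and Grem1 (0) with a mean count of at least 10.

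Same-numbered wells had correlations near 0, with a mean of 0.0076 (-0.0081 to 0.042 over 24 pairs), against -0.0025 for others. Yet 9 of 16 wells were most like their own number, and this count was not compared with its chance value. With a replicate block 39 genes were higher and 11 lower, and 0 induced and 0 lowered genes were larger at 4 hrs; Hip1r, Irgm1, Pon2 and Grem1 had adjusted p of 0.0504, 0.0526, 0.0593 and 0.0524.

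With each well of the contrast, or ActA_4H replicate 1, left out in turn the effect was higher at 12 hrs for 29 to 45 genes and lower for 5 to 16. At 4 hrs 364 to 423 were higher and 63 to 96 lower, and at 12 hrs 484 to 602 and 171 to 252. With time 338 to 481 rose and 255 to 378 fell in treated cells, and 141 to 255 and 161 to 271 in untreated cells. The classes held 29 to 43 induced genes larger at 12 hrs, 0 to 1 larger at 4 hrs and 75 to 106 sustained, and 5 to 14, 0 to 2 and 14 to 27 lowered genes. With any 1 of the 16 Activin-A wells left out, these wells gave 25 to 42 higher and 23 to 33 lower genes, and the difference between both sets 0 to 0 and 0 to 2: 2 without ActA_4H replicate 1 and 1 without ActA_12H replicate 4. Of 45 named called genes 23 kept their call in the 16 fits that each left out a well of the contrast. Differences near 0 changed sign in some of these 16 fits, none of them called: Rtp4 (-0.0328 to 0.19), Socs1 (-0.0803 to 0.0488), Rnf213 (-0.10 to 0.0470), Socs3 (-0.15 to 0.0473), Rnf19b (-0.19 to 0.0043), Mov10 (-0.11 to 0.10), Parp3 (-0.15 to 0.0565), Cxcl9 (-0.20 to 0.0300), Tap2 (-0.27 to 0.0944) and Vsir (-0.74 to 0.44). For Gbp5, at the floor in untreated wells, the fitted difference (-0.40 to 2.29) rests on the prior count and is no bound.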
